A study of Saccharomyces cerevisiae with 24 samples.

Results

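The genes described here make up the machinery that carries ASH1 mRNA to the daughter cell of budding yeast: ASH1 itself, SHE2, SHE3, MYO4, PUF6, LOC1 and KHD1, the last now named HEK2. They were chosen by name, as probe sets that carry 1 of these names or an older synonym and no other gene name. All 7 were found, each with 1 probe set, among 5656 genes measured by such probe sets. ASH1 (YKL185W) and SHE2 (YKL130C) lie on chromosome XI, SHE3 (YBR130C) and KHD1 (YBL032W) on II, MYO4 (YAL029C) on I, PUF6 (YDR496C) on IV and LOC1 (YFR001W) on VI.

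Total RNA of 12 strains of Saccharomyces cerevisiae was hybridised to 24 arrays of the Affymetrix YG-S98 type, with 2 biological replicates per strain. The wild type was BY4741, a haploid laboratory strain of mating type a that lacks several genes for the synthesis of amino acids and uracil. Each of the other 11 strains lacked 1 ribosomal protein gene, and the series describes the wild type as isogenic to them. In 7 strains the gene encoded a large subunit protein (both copies of rpl7, rpl12 and rpl22 in turn, and rpl14a) and in 4 strains a small subunit protein (rps0a, rps0b, rps18a and rps18b). Most ribosomal proteins of yeast are encoded by a pair of near-identical genes, so a strain without 1 copy (A or B) still has the other. All strains were grown in rich medium at 30 °C and frozen in early log phase. How many independent clones stood behind each deletion was not used here.

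Ash1 is a repressor that accumulates in the nucleus of the daughter cell, where it keeps the mating-type switching gene HO off. Its mRNA is made late in mitosis, bound in the nucleus by She2 and Loc1, and carried along actin cables to the bud tip by the type V myosin Myo4, which She3 links to the She2-bound mRNA. Puf6 and Khd1 bind the mRNA and hold back its translation until it arrives. Arrays of whole-cell RNA measure the amount of these mRNAs, not where they lie in the cell. In bulk cultures, fewer cells making a transcript and less transcript per cell cannot be told apart.

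The median signal of an array was 36.3 to 61.4, and its background, set by 19 controls that match no yeast sequence, was 5.55 to 14.3 in 23 arrays and 30.8 in rps0a replicate 2. The rps0a replicates also had the lowest correlation of any strain, 0.958 against up to 0.981. Of the deleted genes, 7 have a probe set of their own, and each was lower in its own deletion, by -9.68 to -5.29 on the log2 scale. All 6 a-cell markers were above background in 24 of 24 arrays, at signals of 44.5 to 9573.6, and the 4 alpha-cell markers had signals of 6.9 to 111.2, with 2 of them above background in all arrays. Probe sets of chromosome XVI in rpl7a, V in rpl12b and VIII in rpl14a had median log2 differences from wild type of 0.94, 0.93 and 0.79. No member gene lies on those chromosomes, and the medians of the members' own chromosomes lay between -0.12 and 0.12 in all 11 deletions.

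All 7 genes were above background in 24 of 24 arrays, and none was called in any deletion. Of 77 tests of a member in a deletion against wild type, 0 had an adjusted p under 0.05 by limma, and 13 had an unadjusted p under 0.05. Over all 9275 probe sets the same 11 comparisons called 1.69% of tests after adjustment and 11.7% before it. By deletion, the share called after adjustment was 6.54% in rpl7a, 3.33% in rpl14a, 2.61% in rps0b, 2.44% in rpl22a and 2.10% in rpl12b. It was 0.668% in rps18a, 0.323% in rps18b, 0.291% in rpl12a, 0.280% in rps0a, 0.0323% in rpl7b and 0.0216% in rpl22b. The shares of rpl7a, rpl14a and rpl12b, and the share over all 11 deletions, include the chromosomes with the shifted medians given above, where no member lies. The smallest adjusted p of a member was 0.0536, for KHD1 in rpl22a. A test across all 12 strains called 0 of 7 members, with 2 at an unadjusted p under 0.05, where it called 11.4% of all probe sets after adjustment and 26.5% before it. Those 2 were ASH1 (adjusted p = 0.0549) and KHD1 (adjusted p = 0.0686). The 5 other members had adjusted p of 0.267 to 0.834.

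**Figure D1:**
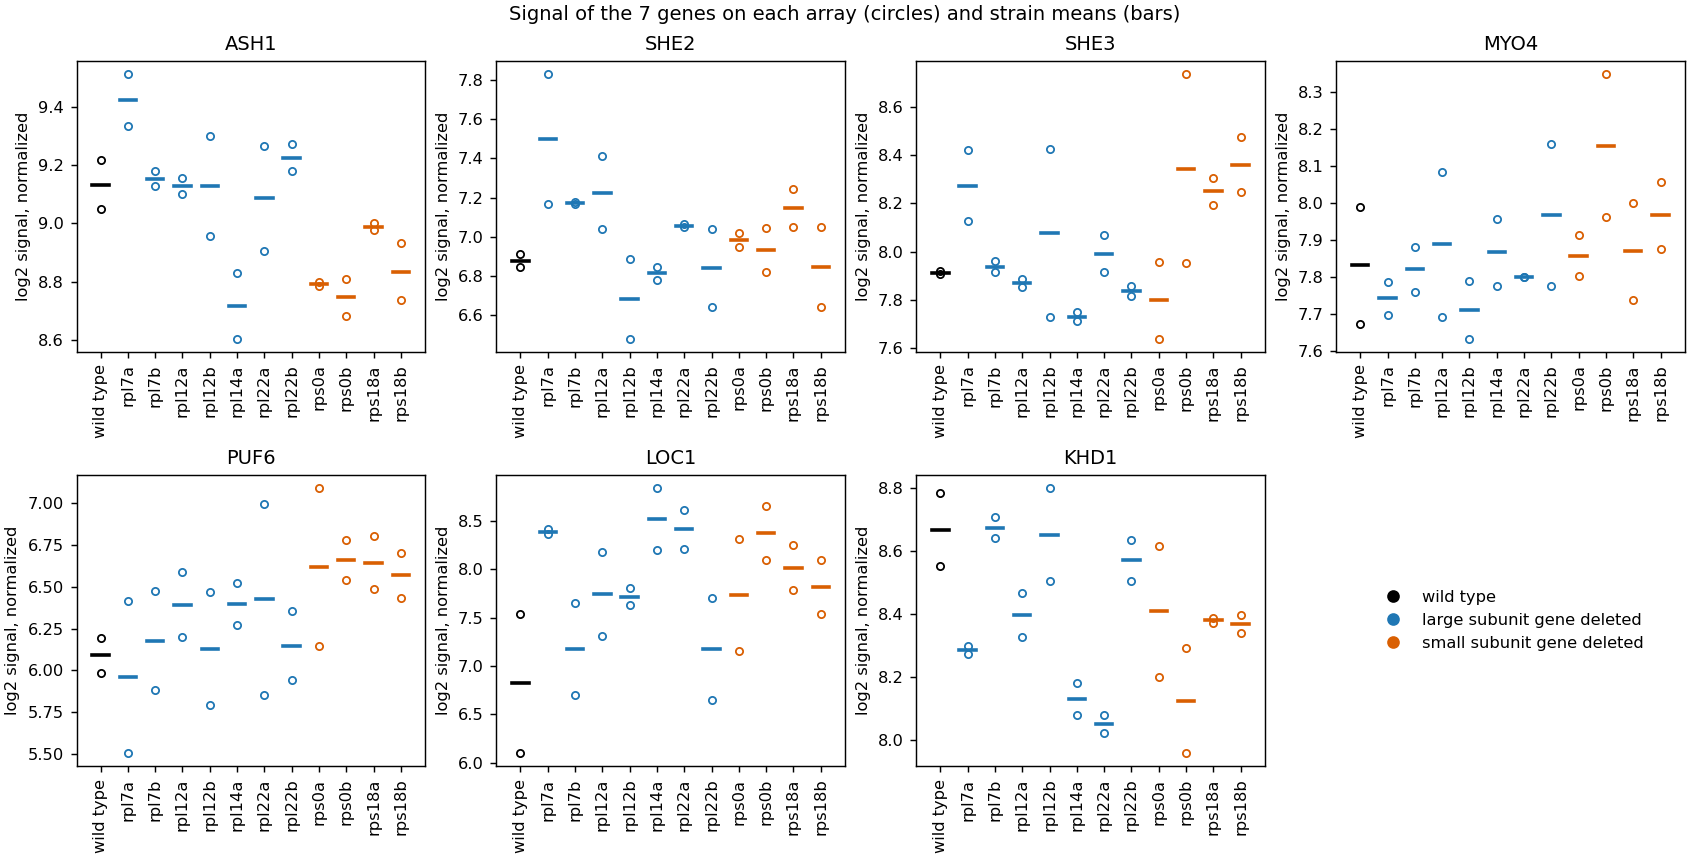
Normalized log2 signal (y axis) of each member gene in the 12 strains (x axis), with a circle for each array, a bar for the mean of 2 replicates and colours for the subunit of the deleted gene. LOC1 has its lowest mean in wild type, and the 4 small subunit deletions have the 4 highest means of PUF6. The y axes differ between genes and do not start at 0.

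**Figure D2:**
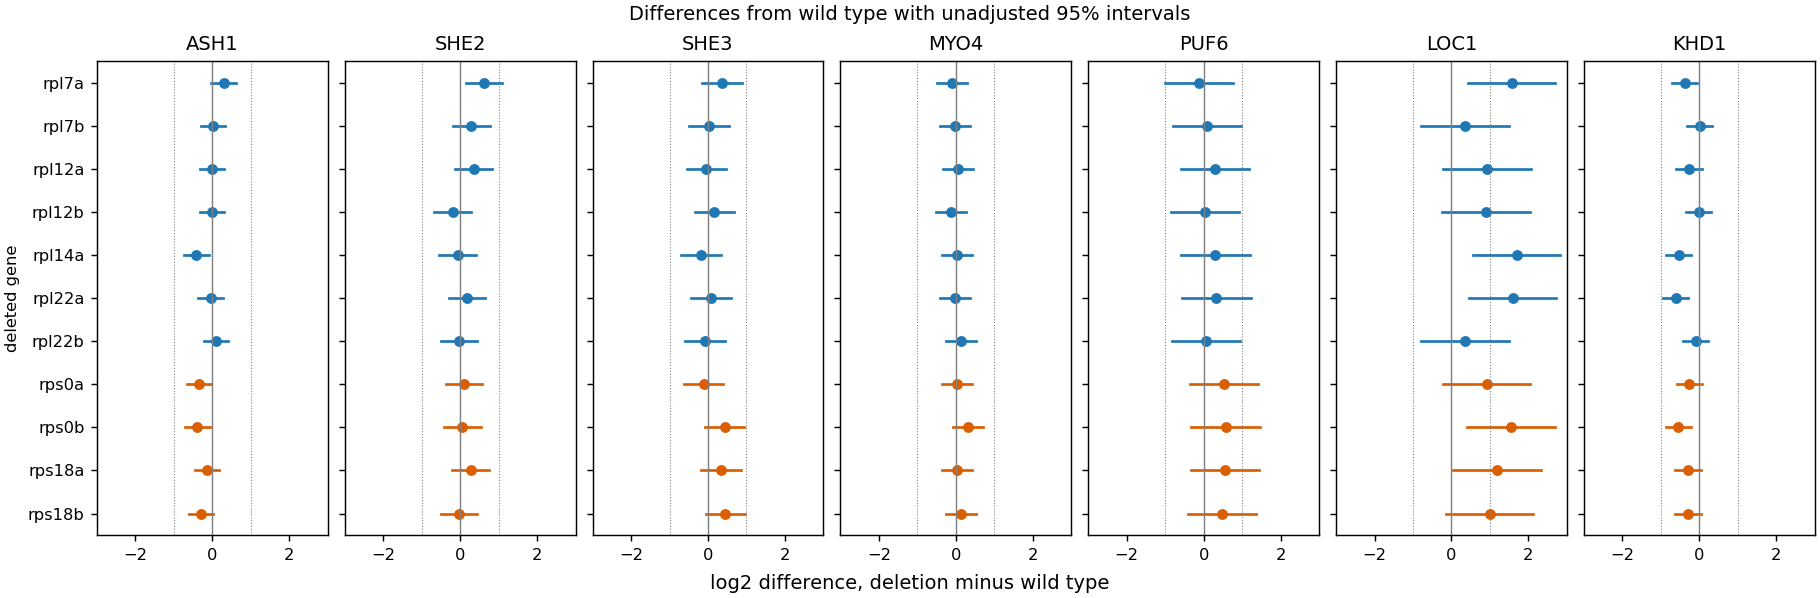
Log2 difference of each deletion from wild type (x axis) for each member gene, with unadjusted 95% intervals, by deleted gene (y axis). Blue marks large and orange small subunit deletions, and dotted lines mark a 2-fold difference. All ASH1 and KHD1 intervals lie between the dotted lines, and every LOC1 interval crosses the upper one.

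ASH1, the cargo, was measured with little spread between replicates. Its deposited signals in wild type were 588.5 and 734.4. In the small subunit deletions they were 515.1 and 446 in rps0a, 482.7 and 378.2 in rps0b, 444 and 408 in rps18a, and 311.1 and 441.3 in rps18b. In deposited signal, all 8 of these arrays were below both wild-type arrays. No share over all probe sets is given on that scale, and array medians differed. They were 47.6 and 52.3 in wild type, 52.8 and 61.4 in rps0a, and 54.2 and 43.2 in rps0b. In rps18a they were 45.6 and 39.7, and in rps18b 36.3 and 42. Among the large subunit deletions, ASH1 signals were 623.5 and 581.4 in rpl7a, 621.4 and 614.9 in rpl7b, 753.8 and 493.6 in rpl12a, and 704.4 and 432.5 in rpl12b. They were 565.2 and 401.1 in rpl14a, 499.2 and 578.2 in rpl22a, and 715 and 541.9 in rpl22b. The rpl14a and rpl22a arrays were below both wild-type arrays, and in the other large subunit deletions at least 1 array reached the wild-type range.

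After quantile normalization, the log2 difference of ASH1 from wild type was -0.42 in rpl14a (SE 0.15, adjusted p = 0.168), -0.39 in rps0b (adjusted p = 0.203), -0.34 in rps0a (adjusted p = 0.387), -0.30 in rps18b and -0.14 in rps18a. In these 5 strains both arrays lay below both wild-type arrays, where 22.2% of all probe-set tests over the 11 deletions did so. The 5 comparisons share the same 2 wild-type arrays. The highest difference was 0.29 in rpl7a (adjusted p = 0.311), which became -0.01 with median centring and -0.13 without normalization. These scalings also moved the lower values: with median centring ASH1 was at -0.65 in rps0a, -0.58 in rps0b, -0.47 in rps18b and -0.40 in rps18a. Without normalization it was at -0.83 in rps18b, -0.63 in rps18a, -0.62 in rps0b and -0.46 in rps0a. The 11 intervals together ran from -0.74 to 0.61, so none reached a 2-fold difference on this scale. ASH1 was called in no deletion under any of 32 alternative settings. The pooled replicate SD of ASH1 was 0.13, at percentile 5.54 of all probe sets, whose median SD was 0.30. The test across 12 strains did call ASH1 when rpl12b replicate 1 (adjusted p = 0.0474) or 2 (0.0409) or rpl22a replicate 1 (0.0324) or 2 (0.0385) was left out, and with a higher floor on low signals (0.0288). It gave an adjusted p of 0.0950 with median centring and of 0.415 without normalization.

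The transport factors SHE2, SHE3 and MYO4 had no difference from wild type that passed the test. SHE2, the RNA-binding protein that recognises the ASH1 mRNA, had deposited signals of 121.1 and 138.3 in wild type, and of 75 to 230.9 (median 133.9) in the 22 deletion arrays. Its log2 differences ran from -0.19 in rpl12b to 0.62 in rpl7a (SE 0.22). In rpl7a its signals were 139.2 and 209, both above wild type, with the second array well above the first. On the normalized scale both rpl7a arrays also lay above both wild-type arrays, which held for 23.3% of all probe sets in that strain. The rpl7a difference had an adjusted p of 0.125, and over 32 alternatives it ran from 0.29 (adjusted p up to 0.625) to 0.95. It passed the test in 1 of them, without rpl7a replicate 1 (0.95, adjusted p = 0.0418), where the lone rpl7a array is assumed to vary like those of the other strains.

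SHE3, the adaptor between She2 and the myosin, had signals of 263.7 and 274.2 in wild type and of 180.6 to 458.5 (median 255.8) in the deletions. Its differences ran from -0.18 in rpl14a to 0.45 in rps18b (SE 0.24), with adjusted p of 0.410 or more. The highest array was rps0b replicate 1, and the other array of that strain, at 226.1, was below both wild-type arrays in deposited signal. On the normalized scale both rps0b arrays, at 8.74 and 7.95, lay above both wild-type arrays, at 7.92 and 7.91. The same held for 22.9% of all probe sets in rps0b. MYO4, the myosin motor, had signals of 277.3 and 231.2 in wild type and of 169.4 to 375.6 (median 227.8) in the deletions. Its differences ran from -0.12 in rpl12b to 0.32 in rps0b (SE 0.18), with adjusted p of 0.426 or more. In no deletion did both MYO4 arrays lie on the same side of both wild-type arrays on the normalized scale, where 20.7% of all probe-set tests had both above and 22.2% both below. Without normalization or with median centring, SHE3 and MYO4 changed the sign of their difference in 5 deletions each and SHE2 in 3.

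KHD1, a repressor of ASH1 translation with KH domains, had a lower mean than wild type in 10 of 11 deletions, none of them past the adjusted threshold. Its deposited signals were 409 and 528 in wild type. The lowest pairs were 280.3 and 246.3 in rpl22a, 341.4 and 227.2 in rps0b, 357.9 and 277.9 in rpl14a, 289 and 288.2 in rpl7a, 298.1 and 272.4 in rps18a, and 236.2 and 308.2 in rps18b. In deposited signal, for which no share over all probe sets is given, all 12 of these arrays were below both wild-type arrays. Signals were 480.1 and 270.9 in rpl12a, 453.6 and 307.2 in rps0a, 413.8 and 389.5 in rpl12b, 441.8 and 442 in rpl7b, and 414.7 and 351.6 in rpl22b. In each of these 5 strains 1 or both arrays reached the wild-type range.

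On the normalized scale, both KHD1 arrays lay below both wild-type arrays in 7 of 11 deletions. Of single probe-set tests over these deletions, 22.2% did so. The 11 comparisons share the same 2 wild-type arrays, so the 7 are not independent of each other. How many probe sets keep to 1 side in as many deletions is not given here. The log2 difference was -0.62 in rpl22a (SE 0.15, adjusted p = 0.0536), -0.54 in rps0b (adjusted p = 0.0828), -0.54 in rpl14a (adjusted p = 0.0813) and -0.38 in rpl7a (adjusted p = 0.186). It was 0.01 in rpl7b, which turned to -0.07 without normalization. No interval reached a 2-fold difference on this scale, the widest running to -0.95. Which side of the threshold these values took depended on single arrays and the floor. In rpl22a it also depended on the replicate number, which as a block gave an adjusted p of 0.0457 by limma. With median centring or without normalization KHD1 passed the test in no deletion, as in the main fit. The arrays of rps0a and rps0b are not part of the rpl22a comparison and enter it through the spread pooled over all strains. Without any 1 of them the rpl22a difference stayed at -0.62, and its SE was 0.129 to 0.147 in place of 0.155. Without rps0a replicate 1, KHD1 passed the test in rpl22a (adjusted p = 0.0285), rpl14a (0.0411) and rps0b (0.0461). Without rps0a replicate 2, the array with the highest background, it passed in the same 3 strains (0.0249, 0.0365 and 0.0402). In rpl22a it also passed without rps0b replicate 1 (0.0496) or rps0b replicate 2 (0.04998) and with the higher floor (0.0342). The test across 12 strains called KHD1 without rps0a replicate 1 (0.0252) or 2 (0.0245) and with the higher floor (0.0395). The other scalings raised the adjusted p, although the rpl22a difference itself lay further from wild type. That difference was -0.74 (SE 0.231, adjusted p = 0.130) with median centring. Without normalization it was -0.82 (SE 0.284, adjusted p = 0.235). Across 12 strains the adjusted p was 0.171 with median centring and 0.326 without normalization.

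LOC1, a nucleolar protein that binds ASH1 mRNA in the nucleus and also takes part in assembling the large ribosomal subunit, had its lowest mean in wild type. Its deposited signals in wild type were 72 and 211.3, a 2.93-fold gap between replicates and the widest of any strain for LOC1. The highest pairs were 362.6 and 474.4 in rpl14a, 303 and 381.1 in rpl22a, 319.3 and 301.3 in rpl7a, and 297.4 and 368.8 in rps0b. In deposited signal, for which no share over all probe sets is given, these 8 arrays were above both wild-type arrays. Signals were 203.5 and 248.6 in rps18a, 136.2 and 250.8 in rps18b, 215.1 and 242 in rpl12a, 230.3 and 190 in rpl12b, 164.6 and 327.7 in rps0a, 109.3 and 208.3 in rpl7b, and 105.8 and 176.5 in rpl22b. No array was below the first wild-type array, and those of rpl7b and rpl22b lay within the wild-type range.

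LOC1 was higher than wild type in 11 of 11 deletions, with the same sign with median centring and without normalization. In no deletion did the difference pass the test in the main fit, which takes no account of the replicate number. With that number as a block it passed in rpl7a, rpl14a, rpl22a and rps0b, as given in the last section. The log2 difference was 1.70 in rpl14a (SE 0.53, adjusted p = 0.108), 1.59 in rpl22a (adjusted p = 0.146), 1.57 in rpl7a (adjusted p = 0.106), 1.56 in rps0b (adjusted p = 0.149) and 1.19 in rps18a (adjusted p = 0.374). It was 0.35 in both rpl7b and rpl22b. In 6 deletions both arrays lay above both wild-type arrays, which held for 20.7% of all probe-set tests over the 11 deletions. All 11 comparisons share the same 2 wild-type arrays, and how many probe sets keep to 1 side in as many deletions is not given here. Without wild-type replicate 1 the difference was 0.98 in rpl14a and 0.85 in rpl7a and became -0.36 in both rpl7b and rpl22b. Without wild-type replicate 2 it was 2.28 in rpl7a and passed the test (adjusted p = 0.0497). The second replicate had the higher normalized LOC1 level in 11 of 12 strains, and the pooled replicate SD of LOC1, 0.56, stood at percentile 83.1 of all probe sets.

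PUF6, a Pumilio-family repressor of ASH1 translation, had deposited signals of 76 and 71.2 in wild type. In the small subunit deletions they were 81.2 and 154.3 in rps0a, 126.7 and 86.8 in rps0b, 104.5 and 74.8 in rps18a, and 78.8 and 77.3 in rps18b. In these strains 7 of 8 arrays were above both wild-type arrays in deposited signal, for which no share over all probe sets is given. Signals in the large subunit deletions were 87.1 and 42.9 in rpl7a, 92.8 and 59.4 in rpl7b, 125 and 58.7 in rpl12a, 106.3 and 46.7 in rpl12b, 108.9 and 79.1 in rpl14a, 132.3 and 55.1 in rpl22a, and 62.4 and 69.3 in rpl22b. In 5 of these 7 strains the first replicate was above and the second below both wild-type arrays. The normalized log2 difference from wild type ran from -0.13 in rpl7a to 0.57 in rps0b (SE 0.41), with adjusted p of 0.571 or more. It was above 0 in 10 of 11 deletions, though in rpl12b and rpl22b it changed sign under another scaling. The second replicate had the lower normalized level in 10 of 12 strains for PUF6 and in 11 of 12 for SHE3 and for MYO4.

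The order of the 12 strains was not resolved step by step for any member. Between neighbouring strains in the order of means, the widest gap was 0.20 for ASH1, 0.27 for SHE2, 0.17 for SHE3, 0.19 for MYO4, 0.21 for PUF6, 0.54 for LOC1 and 0.16 for KHD1. None of these gaps exceeded the half-width of the 95% interval of a difference between strains, which was 0.32 for ASH1 and 1.14 for LOC1.

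The design also compares the deletions of both copies of a gene, and again 0 of 35 tests of a member passed adjustment by limma, with 6 at an unadjusted p under 0.05. Over all probe sets the 5 comparisons called 1.98% of tests after adjustment and 11.7% before it. By pair the share was 5.35% for rpl7, 2.82% for rpl22, 1.65% for rpl12, 0.0863% for rps0 and 0.0108% for rps18. LOC1 was higher in rpl7a than in rpl7b by 1.21 (SE 0.53, adjusted p = 0.250) and higher in rpl22a than in rpl22b by 1.24 (adjusted p = 0.265). KHD1 showed the opposite sign in the same pairs, with -0.39 (SE 0.15, adjusted p = 0.197) and -0.52 (adjusted p = 0.0992). Without rps0a replicate 2, the KHD1 difference between rpl22a and rpl22b passed the test (adjusted p = 0.0479). SHE2 was higher in rpl12a than in rpl12b by 0.54 (SE 0.22, adjusted p = 0.333). SHE3 was lower in rps0a than in rps0b by -0.55 (SE 0.24, adjusted p = 0.566). ASH1 differed by -0.14 to 0.27 between copies, with no interval beyond -0.46 to 0.59. The ASH1 difference between rpl7a and rpl7b, 0.27, became -0.00434 with median centring and -0.04 without normalization.

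LOC1 and KHD1 ran in opposite directions across the strains. The 4 strains with the highest LOC1 means, rpl14a, rpl22a, rpl7a and rps0b, were also the 4 with the lowest KHD1 means. Wild type, rpl7b and rpl22b had the 3 lowest LOC1 means and stood among the 4 highest for KHD1. Across strain means Pearson's r was -0.90 over 12 strains and -0.90 over the 11 deletions. This is a description of points that share the same arrays, and it is the lowest of 21 correlations among the members, which ran up to 0.59 for MYO4 with PUF6. The second-lowest was -0.82, between ASH1 and PUF6.

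**Figure D3:**
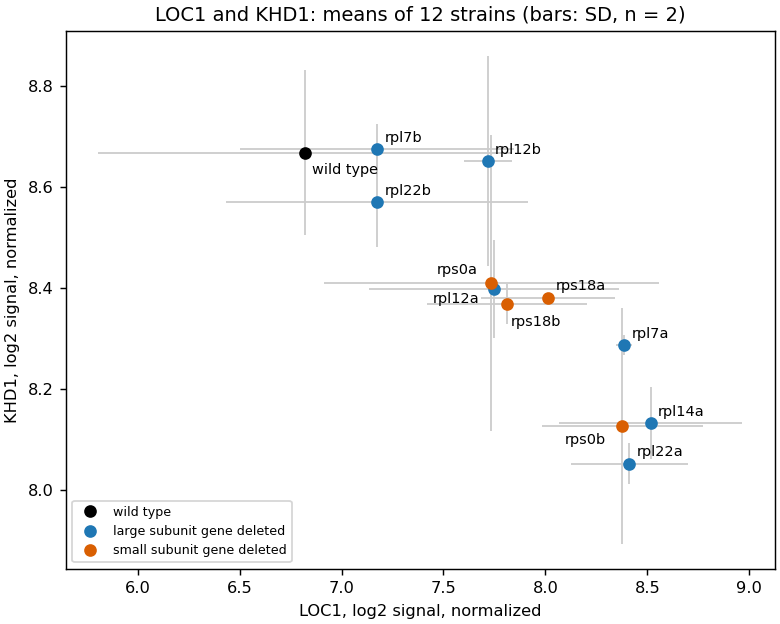
Mean normalized log2 signal of LOC1 (x axis) and KHD1 (y axis) in the 12 strains, with bars of 1 SD over 2 replicates. Wild type, rpl7b and rpl22b lie at the upper left, and rpl7a, rpl14a, rpl22a and rps0b at the lower right. The SD bars of LOC1 are wide in wild type.

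Deletions of large and small subunit genes were compared over strain means, 7 against 4. By limma 0 of 7 members passed adjustment and 2 had an unadjusted p under 0.05, where 3.32% of all probe sets passed after adjustment and 17.3% before it. PUF6 was lower in the large subunit deletions, at a mean log2 level of 6.23 (SD 0.17, n = 7) against 6.62 (SD 0.04, n = 4). The difference was -0.39 (SE 0.10, unadjusted p = 0.00205, adjusted p = 0.0553). The small subunit means, 6.57 to 6.66, were all above the large subunit means, 5.96 to 6.42. For 3.63% of all probe sets the small subunit means likewise all lay above the large subunit means. Single PUF6 arrays overlapped between the groups. They ran from 6.15 to 7.09 in the small subunit deletions, both in rps0a, whose higher array had the highest background. In the large subunit deletions they ran from 5.51 in rpl7a to 6.998 in rpl22a. The pooled replicate SD of PUF6, 0.43, was larger than the SD between strain means in either group.

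The PUF6 difference between subunits was close to the threshold, and over 42 alternatives its adjusted p ran from 0.0390 to 0.402 with the sign kept. It passed with the higher floor (0.0438) and without rpl12a replicate 1 (0.0390), rpl14a replicate 1 (0.0435), rpl22a replicate 1 (0.0469), rps18a replicate 2 (0.0490) or rps18b replicate 2 (0.0406). ASH1 had the opposite sign, with a mean of 9.12 (SD 0.21, n = 7) in large and 8.84 (SD 0.11, n = 4) in small subunit deletions. The difference was 0.28 (SE 0.12, unadjusted p = 0.0331, adjusted p = 0.235). It was 0.41 with median centring and 0.43 without normalization, and its adjusted p ran from 0.0596 to 0.429 over 42 alternatives, with the sign kept. Of the 7 large subunit means, 6 were above all small subunit means, and the rpl14a mean, 8.72, was below them all. The other 5 members differed by -0.23 to 0.07 between the subunits, with adjusted p of 0.418 or more.

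**Figure D4:**
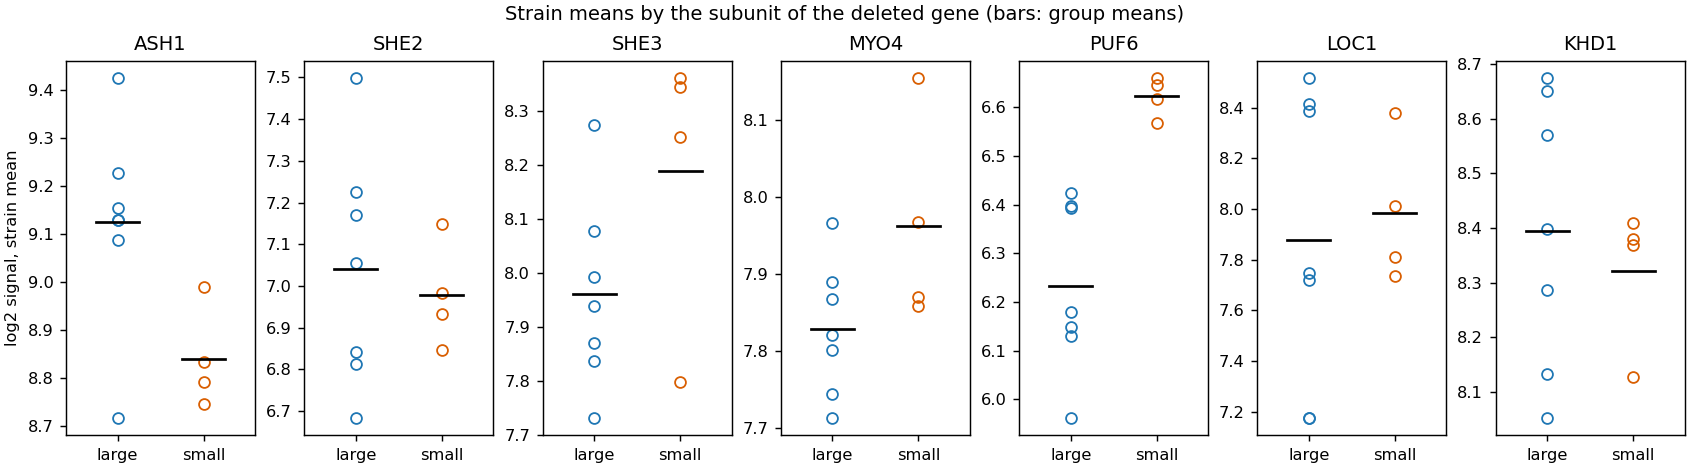
Mean normalized log2 signal of each member gene (y axis) in the 7 large and the 4 small subunit deletions, with a circle for each strain and a bar for the group mean. For PUF6 the small subunit strains all lie above the large subunit strains, and for ASH1 1 large subunit strain, rpl14a, lies at the bottom. The y axes differ between genes and do not start at 0.

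The mean of the 11 deletions was set against wild type to ask what they share. By limma 0 of 7 members passed adjustment and 2 had an unadjusted p under 0.05, where 0.410% of all probe sets passed after adjustment and 11.1% before it. LOC1 was higher by 1.09 (SE 0.39, adjusted p = 0.270) and KHD1 had a difference of -0.30 (SE 0.11, adjusted p = 0.313). The LOC1 value was 0.38 without wild-type replicate 1 and 1.81 without wild-type replicate 2. ASH1 differed by -0.11 (SE 0.11, adjusted p = 0.801) and PUF6 by 0.29 (SE 0.30, adjusted p = 0.819). The other 3 members differed by 0.04 to 0.14.

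Genes that work with these 7 were followed in 5 lists, with 74 genes measured by a probe set of their own. Over the 11 deletions 10 of 814 tests passed adjustment, in 7 genes, beside 1.69% of tests over all probe sets. The 11 genes for actin cables and the upkeep of the myosin, among them BNI1 (a formin that builds the cables), SHE4 (a myosin chaperone) and TPM1 (tropomyosin), gave 0 calls in 121 tests. The 20 other mRNAs known to be carried to the bud by the same machinery, among them IST2, CLB2 and WSC2, gave 0 calls in 220 tests. In both lists the median log2 difference stayed between -0.14 and 0.15 in every deletion.

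The 13 partners in translation repression and nuclear binding gave 1 call in 143 tests. SCP160, an RNA-binding protein with KH domains, had signals of 984.3 and 1032.7 in wild type and of 522.5 and 424.9 in rpl7a. Both rpl7a arrays were below both wild-type arrays, which on the normalized scale held for 26.7% of all probe sets in that strain. SCP160 fell by 0.66 in rpl7a (SE 0.18, adjusted p = 0.0394 by limma). That call was kept under 21 of 31 alternatives, and among the 10 that lost it were those in which either array of rpl7a or of wild type was left out.

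The list of ASH1 activators, HO and the Rpd3L histone deacetylase complex, which works with Ash1, gave 4 calls in 143 tests, 3 of them for HO. HO encodes the endonuclease that starts mating-type switching and is made in mother cells. The HO allele of this laboratory background is known to give no active enzyme. HO signals were 151.8 and 169.8 in wild type, 67.1 and 64 in rpl7a, 59.6 and 67.7 in rpl22a, and 96.3 and 89.3 in rpl14a. These 6 deletion arrays were all below both wild-type arrays, in deposited signal and on the normalized scale. On the normalized scale the same held for 26.7% of all probe sets in rpl7a, 27.6% in rpl22a and 29.4% in rpl14a. HO fell by 1.12 in rpl7a (SE 0.17, adjusted p = 0.00148), by 1.21 in rpl22a (adjusted p = 0.00177) and by 0.79 in rpl14a (adjusted p = 0.0229).

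In the other 8 deletions the HO difference ran from -0.53 in rpl12a to 0.24 in rpl12b and none passed the test. The calls in rpl7a and rpl22a were kept under 31 of 31 alternatives. The call in rpl14a was kept under 26 and lost without normalization and without either array of wild type or of rpl14a. HO also differed between copies. It was lower in rpl7a than in rpl7b, whose signals were 196.4 and 162.8, by -1.34 (SE 0.17, adjusted p = 0.000543). It was lower in rpl22a than in rpl22b, whose signals were 145.9 and 133.5, by -1.20 (adjusted p = 0.00204), a call lost without normalization (adjusted p = 0.0665). The difference between rpl12a and rpl12b, -0.77 (adjusted p = 0.0354), was kept under 18 of 31 alternatives and lost, among others, without either array of wild type, rpl12a or rpl12b.

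In the 3 strains where HO fell, the ASH1 difference was 0.29 in rpl7a, -0.05 in rpl22a and -0.42 in rpl14a, with none past the test and the first negative under other scalings. SWI5, which activates both HO and ASH1, had signals of 40.7 and 22.9 in wild type and log2 differences of 0.15 to 0.80 (SE 0.30) in the 11 deletions, with adjusted p of 0.158 or more. Its wild-type arrays stood far apart, and the second was the lowest of all 24. The fourth call of the list was UME1, an Rpd3L subunit, which was not above background in rps18b (signals 4.5 and 3.7 against 20.4 and 18.7 in wild type). It was at least 1.72-fold lower there, a bound from the lowest signals above background. The adjusted p of 0.0383 by limma belongs to the difference computed from the signals below background, not to this bound. The call was kept under 19 of 30 alternatives. It was lost, among others, with the higher floor, with log2(intensity + 1) and with trend and robust moderation. Leaving out either array of wild type or of rps18b also lost it.

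**Figure D5:**
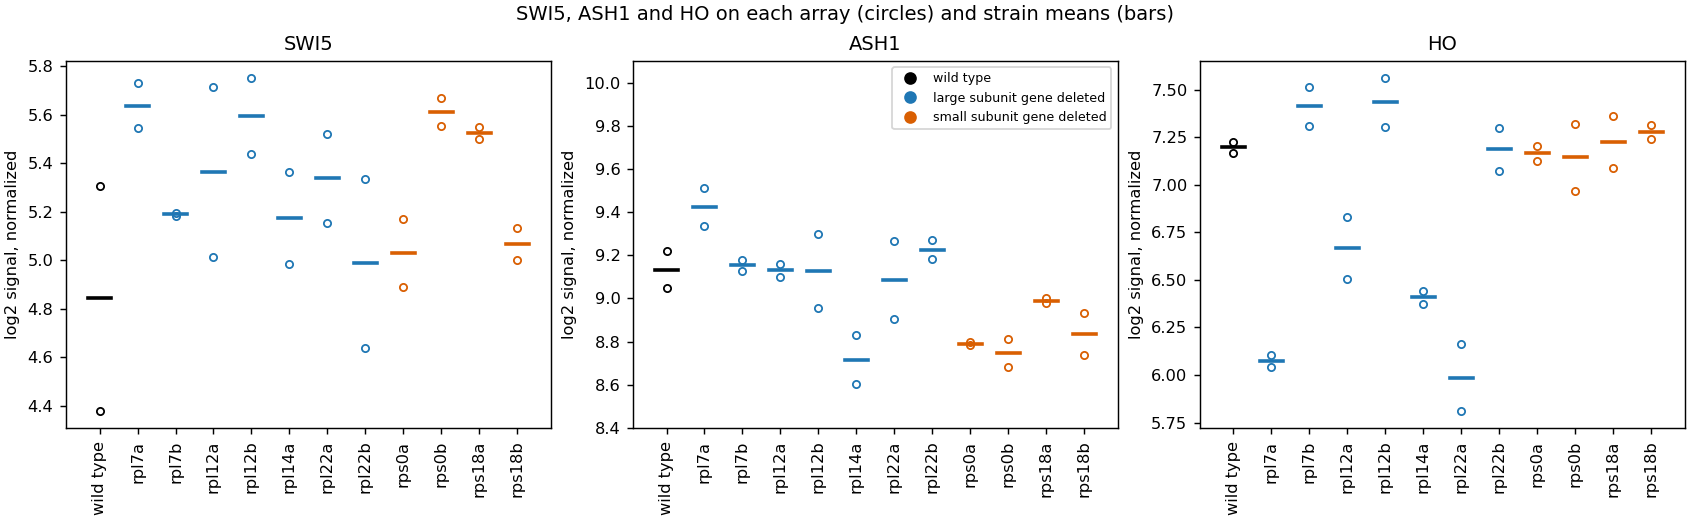
Normalized log2 signal (y axis) of SWI5, ASH1 and HO in the 12 strains (x axis), with a circle for each array and a bar for the mean of 2 replicates. HO is lowest in rpl7a, rpl22a and rpl14a, while ASH1 has its highest mean in rpl7a and its lowest in rpl14a. The y axes differ between genes and do not start at 0.

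The 17 genes transcribed with ASH1 at the end of mitosis or in early G1 gave 5 calls in 187 tests, all in rpl7a or rpl14a. TEC1, a transcription factor of filamentous growth, had signals of 620.7 and 627.7 in wild type and of 168 and 124.9 in rpl14a. In rpl14a it fell by 2.06 (SE 0.27, adjusted p = 0.000982), and the call was kept under 31 of 31 alternatives. DSE2, a daughter-specific cell wall protein, had signals of 2307.1 and 2405.4 in wild type, 5307.3 and 4833.8 in rpl14a, and 2686.6 and 3521.3 in rpl7a. Both strains were above wild type on every array, in deposited signal and on the normalized scale. On the normalized scale the same held for 21.4% of all probe sets in rpl14a and 23.3% in rpl7a.

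DSE2 rose by 1.27 in rpl14a (SE 0.21, adjusted p = 0.00427) and by 0.91 in rpl7a (adjusted p = 0.0181). It lies on chromosome VIII, whose median in rpl14a is given above, and the part of that shift in its rise was not tested. The rpl14a call was lost with median centring (adjusted p = 0.0551), and the rpl7a call was lost with median centring, without normalization, and without either wild-type array or rpl7a replicate 2. The 2 others were PIR1, a cell wall protein, which rose by 0.61 in rpl7a (SE 0.17, adjusted p = 0.0453), and AMN1, an antagonist of mitotic exit, which fell by 0.65 in rpl14a (SE 0.16, adjusted p = 0.0414). They were kept under 16 and 18 of 31 alternatives, and each was lost without normalization, with median centring and without either wild-type array. Between copies, PCL2, a cyclin of the Pho85 kinase, was lower in rpl7a than in rpl7b by -1.12 (SE 0.30, adjusted p = 0.0441), kept under 13 of 31 alternatives. DSE2 was higher in rpl7a than in rpl7b by 0.79 (SE 0.21, adjusted p = 0.0422), kept under 16. Both of these were lost without normalization and without either wild-type array.

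The genes whose 12 strain means followed each member most closely were found by Pearson's r among 4981 genes, as a description. For ASH1 they were MAY24 (r = 0.90), PCL9 (0.88) and MIA40 (0.87). For LOC1 they were KRI1 (0.96), CGR1 (0.96) and PXR1 (0.95), and for KHD1 they were PRO1 (0.96), CKI1 (0.95) and MRPL13 (0.93). PUF6 was followed by YML018C (0.95), RRN3 (0.95) and SNR33 (0.94). The closest gene was AFT2 for SHE2 (0.92), CCT2 for SHE3 (0.89) and MDE1 for MYO4 (0.91). No other member was among the 3 closest genes of any member. PCL9, another cyclin of that kinase and on the list of late mitosis and early G1 genes, had differences from wild type of -0.77 to -0.07 in the 11 deletions, with none past the test (smallest adjusted p 0.0509, in rps0b).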

How the data were processed

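The deposited values are 1 linear intensity per probe set and array. The way the authors summarised probes or scaled arrays is not stated in the sources used here. Per the labels' protocols, hot-phenol RNA was turned into biotinylated cRNA by way of oligo-dT-primed cDNA. Of 9335 probe sets, 60 controls were left out and 9275 were tested: 6504 with 1 gene name, 328 with several and 2443 with none. Names were brought to current symbols of the RefSeq yeast annotation, and chromosomes were read from systematic names.

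Intensities under 3.6, the 10th percentile (9.89% of values), were raised to it, and log2 values were quantile normalized. One fit of 12 strain means in limma 3.58.1 (run in R 4.3.3) gave all differences, with 12 residual degrees of freedom and moderated standard errors. P-values were adjusted by the Benjamini-Hochberg method over all 9275 probe sets within each comparison, at a threshold of 0.05. Large and small subunit deletions were compared in a separate fit of 11 strain means. The steps were tested on simulated data. P-values of the fit of 12 strain means measure the spread between 2 biological replicates, pooled over all strains. Those for large against small subunit deletions measure the spread between strain means. The number of arrays limits the precision. Without normalization, the median difference of all probe sets from wild type was -0.36 to 0.09, and signs that turned are given beside the values.

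A probe set was above background where it exceeded the 95th percentile of 19 controls of its array. Where it did so on no array of a strain, only a bound is given, from the lowest signal above background or the probe set's own, whichever was higher.

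The alternatives tried were median centring or no normalization, a higher floor (14.1, the 25th percentile) or log2(intensity + 1) with none, leaving out the dimmest 25% of probe sets, trend and robust moderation, the replicate number as a block, only the 4 arrays of the strains compared, and leaving out each array or strain. No 2 arrays held identical values. Named genes are all 7 members, up to 4 genes per list with the smallest adjusted p among those called in a deletion, and the 3 genes most like each member. SWI5, PCL2 and, as a list gene, PCL9 were named outside that rule, after their values were seen. Also outside it, BNI1, SHE4, TPM1, IST2, CLB2 and WSC2 were named as examples of what their lists hold. The members and lists were chosen with earlier results of these data known. No sequence or coordinate is shown, and where ASH1 mRNA lies in these strains was not analysed here.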

Additional observations from a re-analysis of the deposited data

Results flagged for a closer look

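KHD1 stood apart in rps0b among the 4 small subunit deletions. Its mean normalized log2 level there was 8.13, and the nearest of the other 3 strains was at 8.37, so that the gap took 0.854 of the whole range. The members were looked at in 14 such groups of strain means, and chance flags about 1 in 20 groups. The rps0b replicates had KHD1 signals of 341.4 and 227.2.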

How the results depend on the processing

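The counts of member calls, 0 in each of the 5 comparisons, stayed at 0 without normalization, with median centring, with log2(intensity + 1), without the dimmest 25% of probe sets, with trend and robust moderation and, for deletions and copies, with only the 4 arrays compared. With the floor at the 25th percentile the test across 12 strains called 2 members (ASH1 and KHD1), the 11 deletions gave 1 call (KHD1 in rpl22a) and the subunits 1 (PUF6). Leaving out each array in turn gave 0 to 1 calls across 12 strains, 0 to 3 in the 11 deletions, 0 to 1 between copies and 0 to 1 between subunits. For each changed call other than those from fewer arrays, the cause was not tested. Replicate numbers were not stated to mark a batch, and deviations of same-numbered arrays correlated by -0.01 to 0.19 (median 0.06, over 0.1 in 19 of 66 strain pairs), so no pairing was taken from them. The second replicate was nonetheless the higher in 11 of 12 strains for LOC1 and in 1 of 12 for SHE3, 1 of 12 for MYO4 and 2 of 12 for PUF6. With the replicate block there was 1 call across 12 strains (LOC1), 5 in the deletions (LOC1 in rpl7a, adjusted p = 0.00499, rpl14a, 0.00485, rpl22a, 0.00886, and rps0b, 0.0136, and KHD1 in rpl22a, 0.0457), 2 between copies (LOC1, 0.0233 and 0.0312) and 1 for the mean of the deletions (LOC1, 0.0337). No called value reversed. The SE of a LOC1 difference from wild type was 0.53 in the main fit and 0.29 with the replicate block. In the main fit, the width of the intervals for LOC1 and PUF6 limits what 2 arrays per strain can show.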
